A study of Homo sapiens with 4 samples.

Results

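Germline and cancer-testis genes are genes normally used in the germ cells of the testis or ovary, some of which also come on in tumour cells. They were followed here in 2 human cancer cell lines in which ADAR, which edits adenosine to inosine within RNA duplexes, was lowered or left at its level. The genes were picked by name: the MAGE families A to H, PAGE, XAGE, SSX, TEX, PIWIL, TDRD and SYCP symbols with a plain number, and GTSF1, DAZL and DDX4. On the exon arrays 53 genes of 14232 with a single symbol matched this rule, in 15 families or single genes. No SSX symbol and no DAZL was among them, because the transcript clusters annotated to these carry several symbols. Where a gene has several transcript clusters the brightest was to be used, but each of the 53 had 1 cluster. The set was proposed with the levels per line and the differences between the arms in view, so those values are given as a description, with no test.

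K562 comes from a chronic myeloid leukaemia and has traits of red cell precursors, and HepG2 is a line from a liver tumour. Cells of each line carried, by stable transfection, a plasmid with either a scrambled siRNA (SCR) or an siRNA against ADAR1 (ADARkd), so the controls also underwent transfection and stable plasmid carriage. The siRNA against ADAR had been picked from several for the strongest reduction; whether the transfected cells were clones or pools is not stated in the labels. Total RNA was hybridised to 4 arrays, 1 for each combination of line and arm. There were no replicates, and every difference within a line is a difference between 2 arrays. HepG2 was grown in DMEM and K562 in RPMI medium, so line and medium cannot be told apart.

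The log2 levels of the 14232 genes had medians between 5.28 and 5.31 on the 4 arrays. The targeted gene, ADAR, had log2 levels of 8.96 in SCR and 7.27 in ADARkd on the arrays labelled HepG2, and 7.99 and 6.78 in K562, which leaves 31.0% and 43.2% of the SCR intensity. A gene counted as above the filter when its average over the 2 arrays of a line, in log2 units, reached the median over all genes, 5.31 on the arrays labelled HepG2 and 5.28 in K562. Of 23 measured hepatocyte markers only 2 were above the filter on the arrays labelled HepG2, and 7 of 11 fibroblast and stromal markers were, so these arrays are called "labelled HepG2" throughout. Of 12 measured erythroid markers, 10 were above the filter in K562 and 1 on the arrays labelled HepG2.

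Several systems meet in this set. In germ cells PIWI proteins bind small piRNAs that silence transposable elements; Tudor domain (TDRD) proteins scaffold them, and GTSF1 is a small zinc finger cofactor of PIWI proteins. SYCP proteins build the synaptonemal complex that holds paired chromosomes together in meiosis. MAGE proteins share a domain that binds ubiquitin ligases: families A, B and C are largely restricted to germ cells and tumours, whereas families D to H are used in many tissues. In most somatic cells DNA methylation at CG dinucleotides of the promoter keeps many germline genes silent. TEX is a naming series for genes found by their expression in testis, and its members do unrelated things.

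Most of the 53 genes were dim in both lines. On the arrays labelled HepG2, 9 genes (17.0%) were above the filter, and in K562 15 genes (28.3%) were, against 50.0% of all genes by construction. Both lines shared 8 of these: MAGED1, MAGED2, MAGEF1, TDRD3, TEX10, TEX2, TEX261 and TEX264. GTSF1, MAGEC1, SYCP2, TEX11, TEX15, TEX19 and XAGE3 were above the filter in K562 alone, and MAGEB2 on the arrays labelled HepG2 alone, where 6.41% of all genes fall in each of these 2 classes. The 8 shared genes compare with 43.6% of all genes. The remaining 37 genes were under it in both. At the edge of the filter in K562, TEX19 lay just above it at 5.54 in SCR and 5.06 in ADARkd, and MAGEA8 just under it at 5.17 and 5.38. On the arrays labelled HepG2 MAGED1 was the nearest above at 5.66 and 5.50, and XAGE3 the nearest under at 4.62 and 5.40. The level of a dim gene on these arrays may be background, which was not analysed here, so a dim value is not read as the absence of a transcript.

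**Figure D1:**
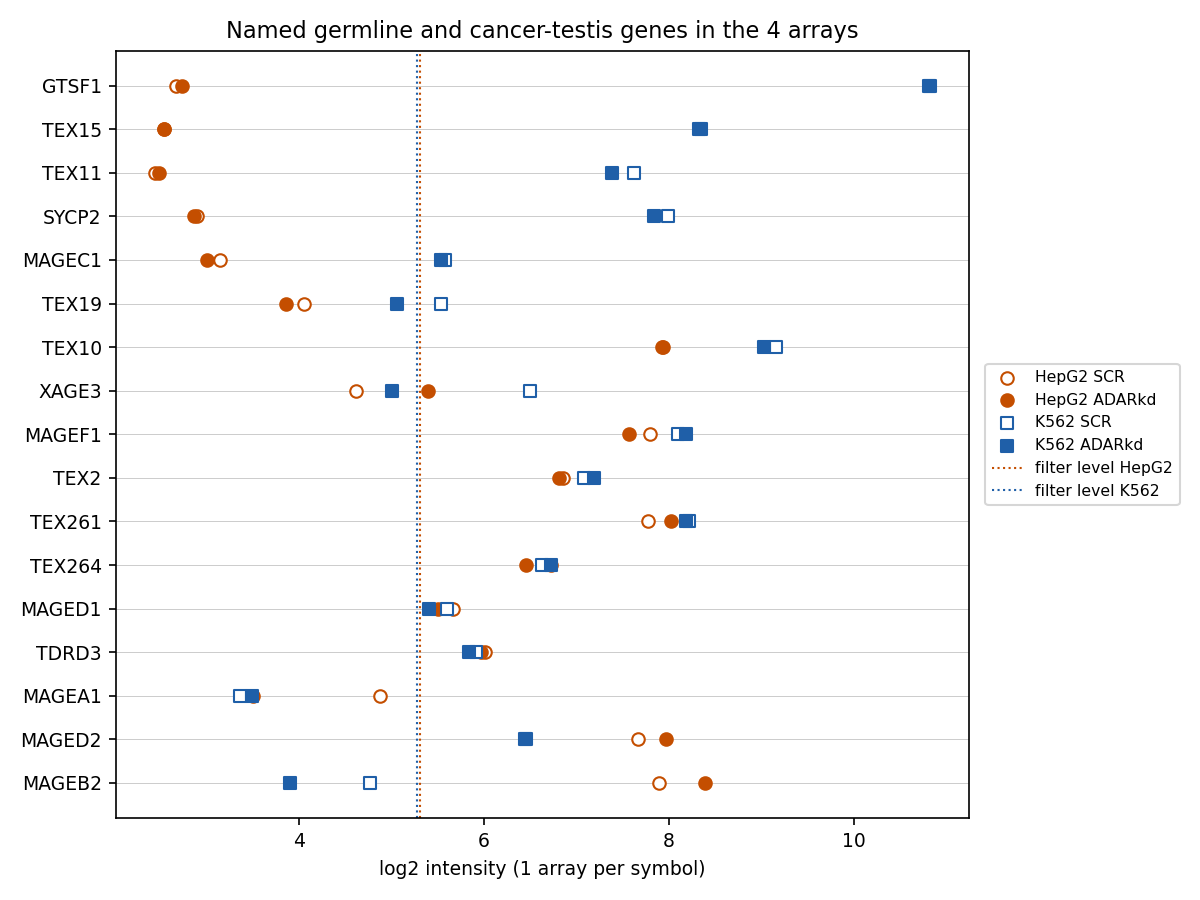
Log2 intensity of the 17 named genes in each of the 4 arrays (open symbols SCR, filled symbols ADARkd; circles labelled HepG2, squares K562; dotted lines mark the filter levels of 5.31 and 5.28). GTSF1, TEX15, TEX11 and SYCP2 stood above 7 in both K562 arrays and under 3 in both arrays labelled HepG2, MAGEB2 was above the filter only on the latter, and XAGE3 had its highest value in K562 SCR.

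The widest gaps between the lines belonged to genes of meiosis and of the piRNA pathway, all higher in K562. GTSF1 stood at 2.67 in SCR and 2.74 in ADARkd on the arrays labelled HepG2, and at 10.8 and 10.8 in K562. Its K562 minus HepG2 difference was 8.14 in the SCR arrays and 8.09 in the ADARkd arrays. TEX15, a large protein needed for meiotic recombination and for piRNA-directed silencing, stood at 2.54 and 2.54 on the arrays labelled HepG2 and at 8.34 and 8.33 in K562, with differences of 5.80 and 5.78. SYCP2, a component of the lateral element of the synaptonemal complex, stood at 2.90 and 2.87 against 7.99 and 7.83, with differences of 5.09 and 4.97. TEX11, an X-linked gene needed for meiotic crossovers, stood at 2.45 and 2.49 against 7.62 and 7.38, with differences of 5.17 and 4.89. In each of these genes the K562 arrays lay far above both arrays labelled HepG2 and the 2 arms of a line lay close together. Their dimmer side was under the filter, so the size of each gap is uncertain: on the log2(value + 16) scale the SCR differences were 6.34 for GTSF1, 3.96 for TEX15, 3.52 for SYCP2 and 3.31 for TEX11. In RNA from a whole culture, fewer cells using a gene and less RNA per cell cannot be told apart.

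MAGEC1, an X-linked cancer-testis antigen, stood at 3.15 and 3.01 on the arrays labelled HepG2 and at 5.58 and 5.54 in K562, 2.43 and 2.53 higher there. On the log2(value + 16) scale its differences were 1.36 and 1.38, under 4-fold. MAGEB2 ran the other way. It stood at 7.89 in SCR and 8.39 in ADARkd on the arrays labelled HepG2, and at 4.76 and 3.90 in K562, with K562 minus HepG2 differences of -3.13 and -4.48. These were the 6 genes at least 4-fold apart between the lines in both arms, of which 5 had the higher level in K562 and 1 on the other arrays. Of all genes, 1.7% and 2.89% were that far apart in these directions.

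Promoters of 5 of these 6 genes are shown, because their levels differed most between the lines, with XAGE3 added for its difference between arms. None is shown for TEX15. Each is the 250 bases before the RefSeq start in GRCh38.p14, a later build than that of the arrays, with CG dinucleotides in capitals. RefSeq lists 2 starts for XAGE3, of which the first listed is shown, and 1 for each of the others.
GTSF1, chr12:54473603-54473852, minus strand: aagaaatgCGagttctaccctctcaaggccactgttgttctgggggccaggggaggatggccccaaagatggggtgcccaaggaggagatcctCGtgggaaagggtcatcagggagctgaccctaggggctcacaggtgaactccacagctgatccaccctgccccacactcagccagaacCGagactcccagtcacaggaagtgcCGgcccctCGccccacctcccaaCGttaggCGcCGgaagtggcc
SYCP2, chr20:59933638-59933887, minus strand: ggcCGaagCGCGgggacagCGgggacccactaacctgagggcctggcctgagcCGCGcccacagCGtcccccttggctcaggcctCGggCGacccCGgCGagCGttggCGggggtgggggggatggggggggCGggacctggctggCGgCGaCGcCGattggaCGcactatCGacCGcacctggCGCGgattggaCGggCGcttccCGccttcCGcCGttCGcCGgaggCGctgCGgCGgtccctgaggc
TEX11, chrX:70908712-70908961, minus strand: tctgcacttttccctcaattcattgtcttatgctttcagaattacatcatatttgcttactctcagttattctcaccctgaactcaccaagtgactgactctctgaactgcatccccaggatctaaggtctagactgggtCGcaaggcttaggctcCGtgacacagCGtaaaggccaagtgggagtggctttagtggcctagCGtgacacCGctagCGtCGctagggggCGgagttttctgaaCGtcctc
MAGEC1, chrX:141903644-141903893, plus strand: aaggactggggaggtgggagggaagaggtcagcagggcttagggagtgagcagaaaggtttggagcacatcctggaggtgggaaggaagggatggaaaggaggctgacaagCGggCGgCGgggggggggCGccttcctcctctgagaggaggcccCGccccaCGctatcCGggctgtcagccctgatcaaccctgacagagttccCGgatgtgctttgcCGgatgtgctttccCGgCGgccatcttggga
MAGEB2, chrX:30215313-30215562, plus strand: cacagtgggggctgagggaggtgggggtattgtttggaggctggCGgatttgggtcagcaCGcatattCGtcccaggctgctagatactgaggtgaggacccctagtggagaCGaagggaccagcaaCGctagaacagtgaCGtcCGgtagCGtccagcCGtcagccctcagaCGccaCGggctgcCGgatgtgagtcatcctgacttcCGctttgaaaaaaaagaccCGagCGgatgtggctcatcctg
XAGE3, chrX:52868084-52868333, minus strand: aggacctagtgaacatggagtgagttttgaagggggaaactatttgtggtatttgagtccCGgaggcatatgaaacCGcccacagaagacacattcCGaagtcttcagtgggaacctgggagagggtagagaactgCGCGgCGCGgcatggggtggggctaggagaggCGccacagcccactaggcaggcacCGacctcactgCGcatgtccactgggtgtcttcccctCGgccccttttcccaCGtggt
SYCP2 has 33 CG dinucleotides in this window, more than or as many as 93.4% of the 27303 genes with a promoter in the RefSeq table. The other 5 hold between 8 and 15: GTSF1 has 8, TEX11 9, MAGEC1 11, XAGE3 12 and MAGEB2 15. A promoter was found for 43 of the 53 genes (81.1%); over these the median was 10.0 CG dinucleotides and 58.4% G and C bases, against 11.0 and 58.0% over the whole table, which also holds genes that are not on the arrays. Of the measured genes 11385 of 14232 had a promoter there, just under the 80% set for such a comparison, which is therefore void; the median over these was 18 CG dinucleotides and 63.2% G and C bases. DNA methylation was not measured on these arrays.

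Letters of known repressor sites were searched on both strands. The E-box CACGTG, bound by MAX and MGA, was in 5 of the 43 promoters (11.6%) and in 6.49% of the table's. The E2F site GCGGGAA was in 4 (9.3%) and in 5.59%. Over the measured genes with a promoter, a comparison void as above, the shares were 7.96% and 7.84%. Of the genes shown, XAGE3 holds the E-box and SYCP2 the E2F site. A further motif, CGGATGTG, which contains the core letters of an ETS factor site, was picked after it was seen in the MAGEB2 and MAGEC1 sequences. It was in 5 of the 15 MAGE promoters (MAGEA11, MAGEA4, MAGEA8, MAGEB2 and MAGEC1), with 2 copies each in MAGEB2 and MAGEC1, in none of the other 28 promoters, and in 0.579% of the table's. Its first letters overlap the CG count. MAGEA4, MAGEA8 and MAGEA11 carry the motif but were under the filter in both lines. MAGEA4 stood between 3.35 and 3.77 over the 4 arrays, MAGEA8 between 4.71 and 5.38, and MAGEA11 between 3.14 and 3.71. A match is a description of the letters, not a site shown to be bound.

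At the lower bound of 2-fold in both arms, 9 of the 53 genes (17.0%) were higher in K562, against 5.2% of all genes, and 2 (3.77%) were higher on the arrays labelled HepG2, against 7.46%. Beside the 5 genes above, the 9 were TEX10, TEX14, TEX19 and MAGEH1. TEX14, a kinase-like protein of the intercellular bridges between germ cells, stood at 3.02 and 3.09 against 4.70 and 4.30 in K562, under the filter in both lines. TEX19, a germline and placenta gene, stood at 4.06 and 3.86 against 5.54 and 5.06, and MAGEH1 at 3.47 and 3.28 against 4.76 and 4.81. TEX10, which despite its name acts in ribosome assembly in most cells, stood at 7.93 and 7.93 against 9.16 and 9.02. The count was 6 on the log2(value + 16) scale, and 5 among genes reaching the 75th percentile of all genes in a line. The 2 genes higher on the arrays labelled HepG2 were MAGEB2 and MAGED2, a MAGE protein needed for salt handling in the fetal kidney, at 7.66 and 7.96 against 6.46 and 6.45. Over all 53 genes the median K562 minus HepG2 difference was 0.24 in SCR and 0.38 in ADARkd, beside 0.15 and 0.22 over all genes.

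**Figure D2:**
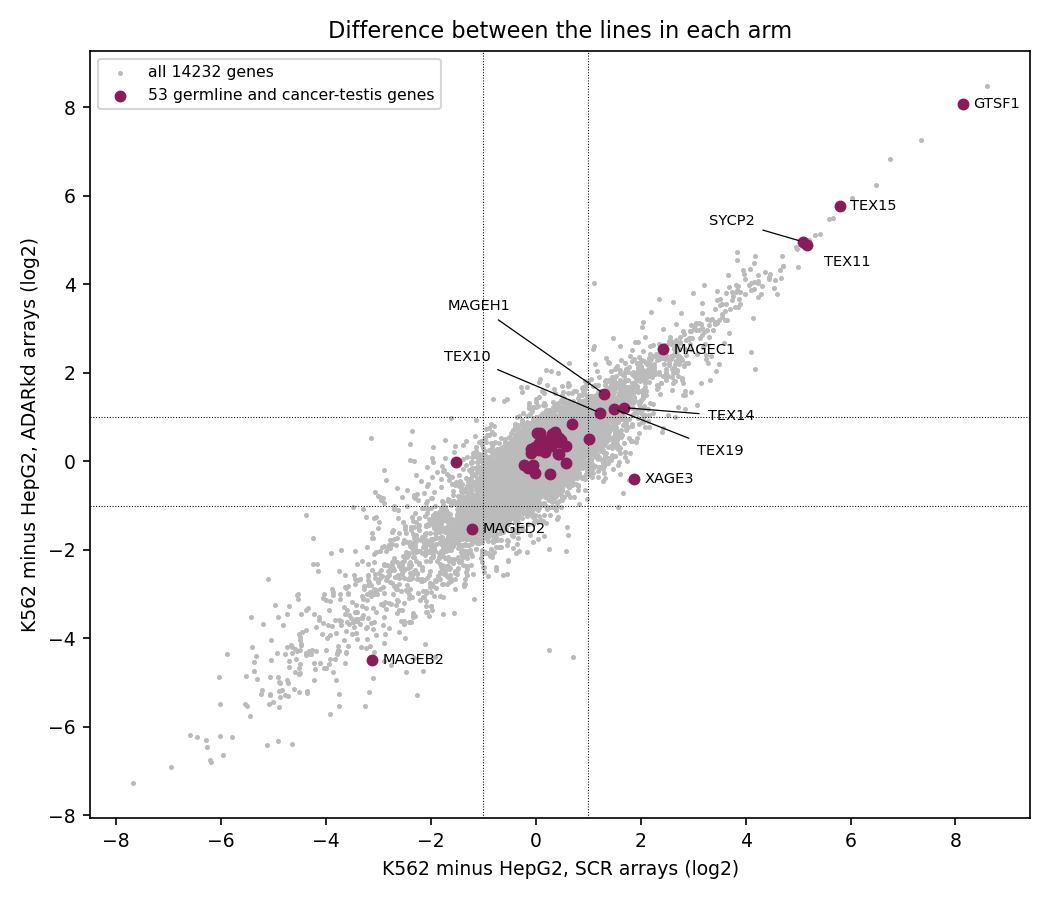
K562 minus HepG2 log2 difference in the SCR arrays (horizontal axis) and in the ADARkd arrays (vertical axis) for all 14232 genes (grey) and the 53 germline and cancer-testis genes (purple); dotted lines mark 2-fold. GTSF1, TEX15, SYCP2, TEX11 and MAGEC1 lie at the upper right and MAGEB2 at the lower left, while XAGE3 leaves the diagonal with 1.88 in SCR and -0.39 in ADARkd.

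Within the piRNA pathway, GTSF1 was above the filter in K562 and the PIWI proteins it works with were not. None of PIWIL1, PIWIL2, PIWIL3 and PIWIL4 was above the filter in either line, and their levels ran from 3.06 to 3.70 over the 4 arrays. DDX4 (Vasa), a helicase of germ granules, stood at 2.66 and 2.71 on the arrays labelled HepG2 and at 2.83 and 3.05 in K562. Of the 5 TDRD genes, 1 was above the filter, TDRD3, which reads methylated arginines and works with the topoisomerase TOP3B outside the germline. It stood at 6.01 and 5.97 on the arrays labelled HepG2 and at 5.91 and 5.84 in K562, so that its 4 values nearly coincided. In a separate list of 12 other measured piRNA pathway genes, 4 were above the filter on the arrays labelled HepG2 and 3 in K562. At least 2-fold apart in both arms, 1 (8.33%) was higher in K562 and 1 (8.33%) lower, beside 5.2% and 7.46% of all genes. The higher was PLD6, a mitochondrial nuclease of piRNA processing, by 1.04 and 1.14. The lower was HENMT1, which methylates the ends of piRNAs, by values of -2.84 and -2.34.

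The meiotic members can be set beside the other genes of meiosis. Of 20 measured genes on that list, 7 were above the filter in K562 and 3 on the arrays labelled HepG2. At least 2-fold higher in K562 in both arms were 5 (25%), and 1 (5.0%) was lower, beside 5.2% and 7.46% of all genes. STAG3, the cohesin subunit of meiotic chromosome axes, stood at 3.98 and 3.91 against 8.22 and 7.93 in K562. SPATA22, a recombination protein, stood at 3.09 and 3.10 against 5.49 and 5.43, and SYCE1, of the central element of the synaptonemal complex, at 2.81 and 3.12 against 5.48 and 5.14. DMC1, the meiotic recombinase, was higher in K562 by 1.37 and 1.38. The 1 lower in K562 was TRIP13, an ATPase that is also used in mitosis, by -1.29 and -1.73. Members of the same structures that were dim in both lines included SYCP1, the transverse filament of the complex, between 2.60 and 2.86 over the 4 arrays, and TEX12, of its central element, between 2.39 and 3.23.

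Other germline and tumour genes were compared in the same way. Of 36 other cancer-testis genes measured, 10 were above the filter in each line. In both arms 1 (2.78%) was at least 2-fold higher in K562 and 2 (5.56%) were lower, beside 5.2% and 7.46% of all genes. The 1 was CTCFL (BORIS), the germline paralog of the insulator protein CTCF, at 3.26 and 3.18 against 8.45 and 8.19 in K562. LY6K, a surface protein of testis and tumours, was lower in K562 by -3.43 and -3.23. Of 15 germ cell and pluripotency factors 3 (20.0%) were at least 2-fold higher in K562 in both arms and 2 (13.3%) lower, beside the same shares of all genes. LIN28B, an inhibitor of let-7 processing, was higher in K562 by 4.37 and 4.29, and PRDM1, a repressor that specifies primordial germ cells and also acts in other lineages, was lower by -3.93 and -3.36. Of the 24 measured genes of DNA methylation and germline gene silencing, 18 were above the filter on the arrays labelled HepG2 and 20 in K562. In both arms 4 (16.7%) were at least 2-fold higher in K562 and 0 lower, beside 5.2% and 7.46% of all genes. The median difference between the lines was 0.16 in SCR and 0.05 in ADARkd, beside 0.15 and 0.22 over all genes. TET1, which oxidises methylated cytosine, was higher in K562 by 4.70 and 4.63, the methyltransferase DNMT3B by 3.23 and 2.66, and E2F6, a repressor of germline genes, by 1.78 and 1.58.

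Markers of the cells of the testis were dim in most cases. Of 16 measured spermatid genes 1, ODF2, which is also a centriole protein, was above the filter. None was at least 2-fold apart between the lines in both arms, where 5.2% of all genes were higher in K562 and 7.46% lower. Of 14 measured genes of testis somatic cells, 3 were above the filter in K562 and none on the arrays labelled HepG2; these were STAR, WT1 and CLDN11, which are used outside the testis too. CYP11A1, the first enzyme of steroid synthesis, was under the filter in both lines and lower in K562, at 4.24 and 4.78 against 3.04 and 3.16.

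The genes next to these members in the genome were compared. For the 8 members at least 4-fold apart between the lines or 2-fold apart between the arms, the 2 nearest measured protein-coding genes on each side in the RefSeq order gave 32 neighbours. Of these 4 were at least 2-fold higher in K562 in both arms, 1 at least 4-fold, and 1 at least 2-fold higher on the arrays labelled HepG2, beside 5.2%, 1.7% and 7.46% of all genes. The neighbour at least 4-fold higher was NCKAP1L, a blood cell actin regulator beside GTSF1, at 3.11 and 3.07 against 8.31 and 8.07 in K562. The neighbours of MAGEB2 included the family members MAGEB3 and MAGEB10, which stayed between 3.07 and 3.85 over the 4 arrays where MAGEB2 reached 8.39. MAGEC3, beside MAGEC1, stood at 3.86 and 4.03 in K562 and at 3.80 and 3.78 on the arrays labelled HepG2. Of the 53 genes 22 are on the X chromosome, where most MAGE and XAGE genes lie. Of these 22, 3 (13.6%) were at least 2-fold higher in K562 in both arms and 2 (9.09%) on the other arrays, beside 5.31% and 9.39% of all 490 measured X-linked genes.

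The comparison of ADARkd with SCR asked whether lowering ADAR went with a difference in these genes. On the arrays labelled HepG2, none of the 9 genes above the filter was 2-fold apart, against 4.03% of all genes above the filter, and none was 1.5-fold apart, against 18.1%. Their differences ran from -0.28 to 0.50, with a median of -0.04 beside 0.11 over all genes above the filter. After quantile normalization these medians were -0.15 and 0.01. Of the 7 fibroblast and stromal markers above the filter there, 4 were at least 2-fold lower in ADARkd, among them COL3A1 (-2.42), FN1 (-1.80) and FAP (-1.66), while LUM (0.78) and DCN (0.64) were higher; their part in the differences of the members was not tested. MAGEB2 had the highest difference of the 9, from 7.89 to 8.39 (0.50), then MAGED2 (0.30) and TEX261, a protein of transport out of the endoplasmic reticulum (0.25). TEX264, a receptor for the autophagy of that organelle, was the lowest at -0.28, and MAGEF1, which joins a ligase that acts on iron-sulfur protein assembly, stood at -0.22. TEX2, a lipid transfer protein, differed by -0.05, TEX10 by less than 0.01 in size, and MAGED1, an adaptor of the neurotrophin receptor p75, by -0.16.

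Under the filter on the arrays labelled HepG2, the differences of 44 genes ran from -1.38 to 0.88. MAGEA1, a cancer-testis antigen presented to T cells on melanoma, stood at 4.88 in SCR and 3.51 in ADARkd, a difference of -1.38, and at 3.37 and 3.50 in K562. Its SCR value on the arrays labelled HepG2 was thus the high one, and the other 3 lay together. It was the 1 of the 53 genes at least 2-fold apart there, against 2.99% of all genes with no filter. On the log2(value + 16) scale its difference was -0.73. MAGEE2 (2.66 and 3.55) and XAGE3 (4.62 and 5.40) were at least 1.5-fold higher in ADARkd, with differences of 0.88 and 0.78; of all genes under the filter 2.5% were.

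In K562 the outlying gene was XAGE3, an X-linked gene used in placenta and some tumours. It stood at 6.50 in SCR and 5.01 in ADARkd, a difference of -1.49 that leaves 35.6% of the SCR intensity, and was number 4 from the lowest among the 7116 genes above the filter. Its K562 SCR value exceeded the other 3 arrays, and its ADARkd value was under the filter level. XAGE3 thus passed the filter, and entered this rank and the next counts, only through its SCR value. It was the 1 of 15 genes above the filter that was 2-fold apart, against 0.155% of all genes above it, and also the 1 that was 1.5-fold apart, against 1.03%; the difference was between -1.53 and -1.14 under the alternative scalings, and a filter at the 75th percentile left XAGE3 out, so that the count was 0. Its neighbour in the family, XAGE5, stood at 2.53 and 2.82 in K562. XAGE genes have close paralogs whose transcripts can bind the same probes, as do MAGE genes, so their values are uncertain.

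The 5 genes with the widest gaps in favour of K562 differed by at most 0.24 in size between its arms. GTSF1 differed by 0.01, TEX15 by -0.01, MAGEC1 by -0.04, SYCP2 by -0.16 and TEX11 by -0.24, beside an SD of 0.19 over all genes above the filter in K562. TEX19 differed by -0.49 and TEX10 by -0.14. The ADARkd value of TEX19, 5.06, was under the filter level, so it passed the filter only through its SCR value. Over the 15 genes the median was -0.04, beside -0.07 over all genes above the filter; after quantile normalization it was 0.02, beside a median over all genes above the filter of -0.001. MAGEB2, under the filter in K562, went from 4.76 to 3.90 (-0.86), or by -1.03 after quantile normalization and -0.48 on the log2(value + 16) scale, and TEX14 from 4.70 to 4.30 (-0.40).

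**Figure D3:**
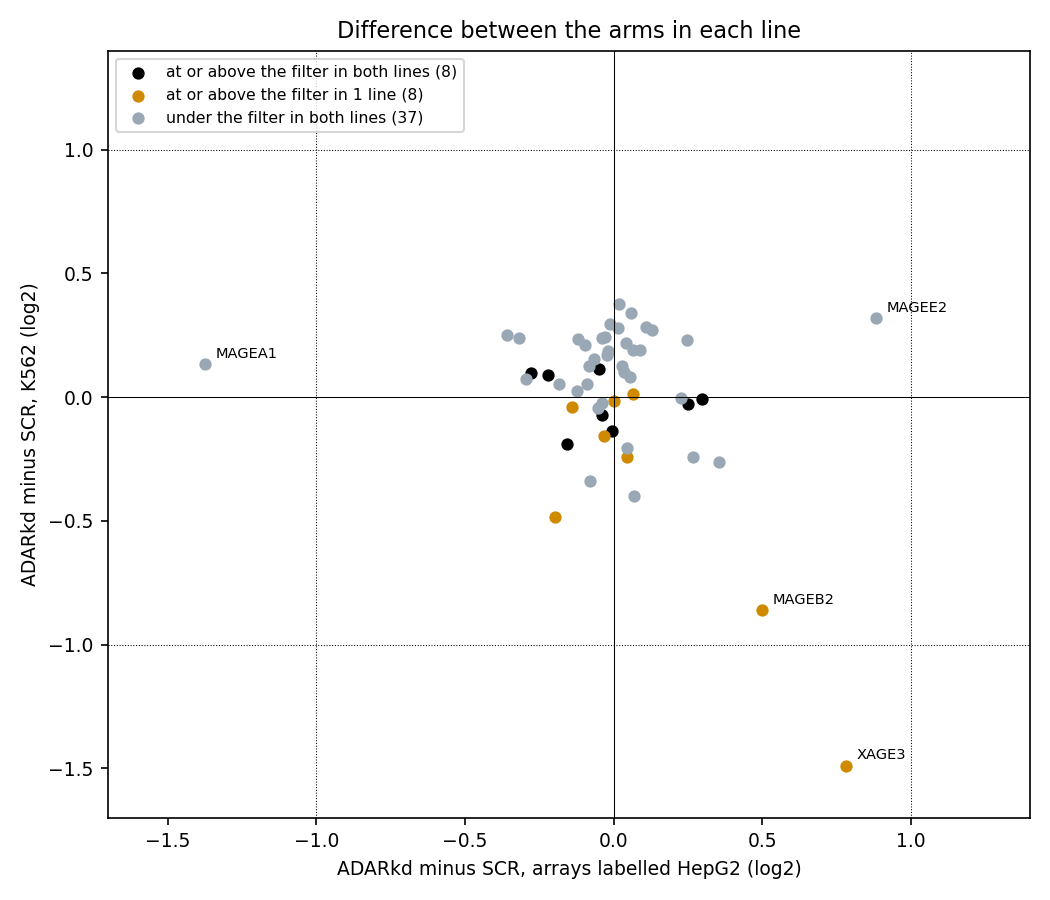
ADARkd minus SCR log2 difference of the 53 genes on the arrays labelled HepG2 (horizontal axis) and in K562 (vertical axis), coloured by whether the gene was above the filter in both lines (8), in 1 (8) or in neither (37); dotted lines mark 2-fold. MAGEA1 lies apart at -1.38 on the horizontal axis and XAGE3 at -1.49 on the vertical axis, and MAGEB2 and XAGE3 differ in sign between the lines.

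Dim genes were mostly higher on the K562 ADARkd array. Of the 38 genes under the filter there, 29 (76.3%) were higher in ADARkd, with a median difference of 0.16, beside 74.8% and 0.13 over all genes under the filter. After quantile normalization the medians were 0.0037 for the members and 0.0012 for all genes, with 19 of 37 members higher. On the arrays labelled HepG2 22 of 44 (50.0%) were higher, beside 41.4% of all genes under the filter. The medians there were -0.01 and -0.04.

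**Figure D4:**
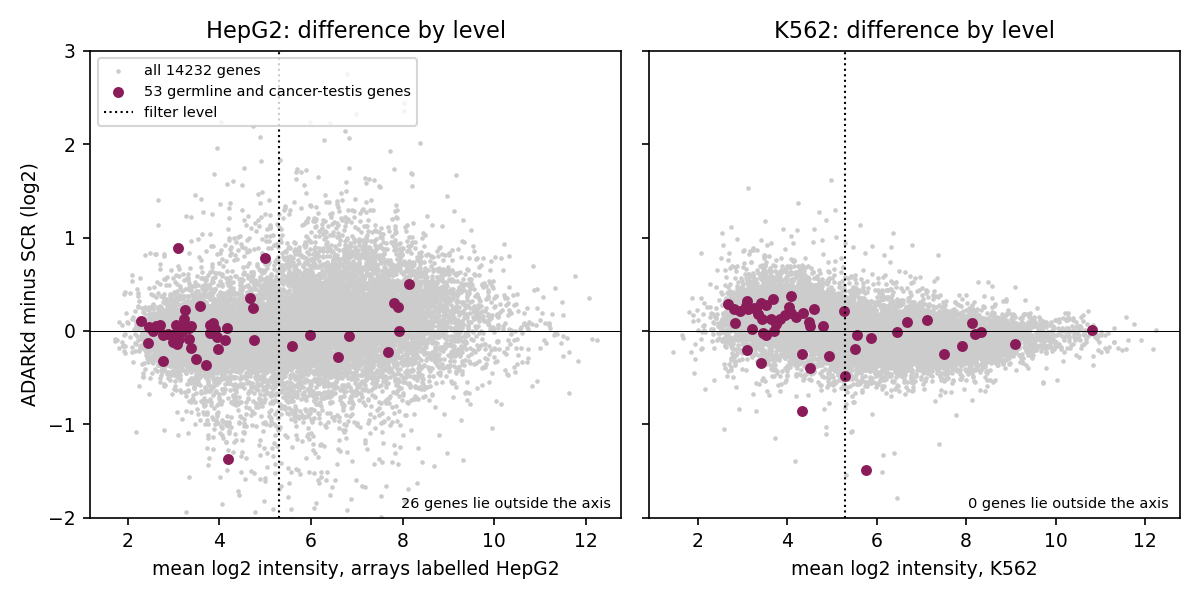
ADARkd minus SCR log2 difference against the mean log2 intensity in the same line for all 14232 genes (grey) and the 53 genes (purple), in the arrays labelled HepG2 (left) and K562 (right); the dotted line is the filter level, and 26 genes lie outside the left panel's axis. In K562 the dim genes lie mostly above 0 in grey and purple alike.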

How the data were processed

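The deposited table holds a linear intensity for each of 17881 transcript clusters on 4 Affymetrix exon arrays, 1 per line and arm. RMA and the build hg18 are named, with no version, in the submitters' processing notes; later steps of the authors are not given in the sources used here. Log2 was taken with no offset. The platform annotation gave 1 symbol to 14432 clusters, several to 2408 and none to 1041; only the first were named, which gave 14232 genes with the brightest cluster of each. All 53 symbols of the set were found in RefSeq, in GRCh38.p14, used for names, chromosomes, gene order and promoters.

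Differences are log2, ADARkd minus SCR within a line and K562 minus HepG2 within an arm. A gene is called at 2-fold, within a line among genes at or above the filter, between lines over all genes and in both arms. With 1 array per group there is no test and no p-value; the number of arrays limits the precision. The differences and calls were checked on simulated levels without noise. This covers the arithmetic alone and not the precision of calls from single arrays.

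The members and lists were chosen with earlier results of these data known. Named were the members above the filter in a line, at least 2-fold apart between arms or at least 4-fold between lines, and up to 4 (line) and 2 (arm) genes per list; any further gene was picked with its values in view. Alternatives were quantile normalization and cyclic loess (limma 3.58.1, R 4.3.3), log2(value + 16), the mean of a gene's clusters and other filters. Figures used matplotlib 3.10.9.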

Additional observations from a re-analysis of the deposited data

Results flagged for a closer look

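In all, 3 genes had opposite signs in the 2 lines with a gap of at least 2-fold between their ADARkd minus SCR differences. With 1 array per group this was not tested. The share of all genes that meet this rule was not counted, so whether 3 is many for such a set is not known. For XAGE3 the difference was 0.78 on the arrays labelled HepG2 and -1.49 in K562, 2.27 apart. For MAGEA1 it was -1.38 and 0.13, which gives -1.51; in K562 it was -0.04 after quantile normalization and -0.02 after cyclic loess, the same sign as on the other arrays. On the log2(value + 16) scale MAGEA1 differed by -0.73 and 0.05, less than 2-fold apart. For MAGEB2 it was 0.50 and -0.86, 1.36 apart, and 0.47 and -0.48 on that scale, less than 2-fold apart. All 3 are X-linked, and in each at least 1 line had the gene under the filter level.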

How the results depend on the processing

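No paired analysis was run, and no result here comes from a test. There was 1 array for each line and arm, with no replicate numbers in the labels. A model with line and arm as terms would leave 1 residual degree of freedom and was not run. At a filter of the 75th percentile, 5 genes instead of 9 were above it on the arrays labelled HepG2, 8 instead of 15 in K562, 5 instead of 9 were higher in K562, and 0 instead of 1 were 2-fold apart between the arms in K562. With no filter 1 gene instead of 0 was 2-fold apart between the arms on the arrays labelled HepG2. The other 41 of 46 alternative values of the counts and medians, among them 6 and 7 genes higher in K562 on the log2(value + 16) scale and after cyclic loess, stayed within 1.5 times or within 1 SD of the differences of all genes (0.47 and 0.19). The medians are near 0 and changed sign: on the arrays labelled HepG2 to 0.25 at that stricter filter, in K562 to 0.02 after quantile normalization and 0.09 with no filter. Of 272 values of named genes, 13 moved by more than 1 SD, all on the log2(value + 16) scale, and 0 changed the sign of a 2-fold difference. For differences between the lines the SD over all genes was wider, 1.02 in SCR and 1.03 in ADARkd. Dim levels limit the size of the gaps whose dimmer side lay under the filter.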

Other observations

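Beside the 53 genes, 20 transcript clusters carry several symbols of which at least 1 matches the naming rule, and none of them can be assigned to a gene. Of these, 4 were above the filter on the arrays labelled HepG2 and 4 in K562. A cluster annotated to SSX symbols alone stood at 7.17 and 6.68 on the arrays labelled HepG2 and at 7.87 and 8.04 in K562. The other clusters above the filter on the arrays labelled HepG2 were lower in K562 in both arms. They stood at 6.49 and 5.76 against 3.45 and 3.71 in K562, and at 8.09 and 8.23 against 7.14 and 7.02. The last stood at 6.65 and 5.75 against 5.50 and 5.36. A cluster annotated to MAGE symbols alone stood at 4.24 and 4.21 on the arrays labelled HepG2 and at 5.82 and 5.86 in K562. Another such MAGE cluster stood at 3.15 and 2.95 on the arrays labelled HepG2 and at 5.48 in SCR and 4.59 in ADARkd in K562, just under the filter as a mean.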
